A study of Mus musculus with 5 samples.

Results

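The 10 genes described here encode kinases that are switched on by calcium-bound calmodulin, and the binding of the transcription factor NEUROD2 was examined at each of them. They include the genes of the subunits of calcium/calmodulin-dependent kinase II (CaMKII), Camk2a, Camk2b, Camk2d and Camk2g, and the gene of CaMKIV, Camk4. The others are genes of CaMKI forms, Camk1, Camk1d and Camk1g, and those of the kinases that activate CaMKI and CaMKIV, Camkk1 and Camkk2. All 10 were chosen by name, with earlier results of these data known, from the 21911 protein-coding genes of the GENCODE M21 annotation of the mouse genome (GRCm38, mm10). For each gene, the peaks that overlapped its gene body plus 10 kb on each side were taken, and this stretch is called the span of the gene.

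ChIP-Seq recovers the DNA bound by a protein with an antibody and sequences it. The libraries were made from the cerebral cortex of untreated BALB/c pups at postnatal day 0 (P0), pooled from 5 littermates of either sex. The NEUROD2 antibodies were ab168932, here antibody 1, ab104430, antibody 2, and ab109406, antibody 3. Each gave 1 library, and a library of a GFP antibody (sc-8334) served as the control of the peak calling. The antibodies are the only replicates, and whether each had its own pool of mice is not stated, so the spread between them may be technical.

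When calcium enters a neuron it binds calmodulin, and the complex activates these kinases. CaMKII is abundant at synapses, where its holoenzymes of mixed subunits take part in long-term potentiation and in the growth of dendrites. In a separate cascade, CaMKK phosphorylates CaMKI, which acts on axon and dendrite growth, and CaMKIV, a mostly nuclear kinase that phosphorylates the transcription factor CREB. NEUROD2 is a neuronal basic helix-loop-helix factor, and such factors bind as dimers to E-boxes, which have the letters CANNTG.

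The peaks in the spans of the kinase genes formed 12 separate sites, and the DNA at the centre of 8 of them is shown here, since the E-boxes in it are described with the results. Each sequence is the central 200 bp of a site, from the RefSeq copy of GRCm38, on the plus strand, with every E-box in capitals. The windows at Camk2d site 3 and at Camk2g end before the first annotated exon, after 154 and 174 bases. The sequences of the 4 sites at Camk2a and Camk4 are not shown. The first 3 sequences were bound with all 3 antibodies and the other 5 with antibody 2 alone.
Camk2d site 2, chr3:126764848-126765047: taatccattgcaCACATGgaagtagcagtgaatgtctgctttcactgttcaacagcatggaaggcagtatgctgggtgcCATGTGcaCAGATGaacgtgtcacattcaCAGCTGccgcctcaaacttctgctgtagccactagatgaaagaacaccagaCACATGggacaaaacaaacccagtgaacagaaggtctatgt
Camk2d site 1, chr3:126725732-126725931: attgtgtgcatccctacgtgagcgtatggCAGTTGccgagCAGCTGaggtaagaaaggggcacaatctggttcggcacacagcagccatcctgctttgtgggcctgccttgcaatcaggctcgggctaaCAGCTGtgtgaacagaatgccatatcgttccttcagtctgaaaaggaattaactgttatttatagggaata
Camkk1, chr11:73019202-73019401: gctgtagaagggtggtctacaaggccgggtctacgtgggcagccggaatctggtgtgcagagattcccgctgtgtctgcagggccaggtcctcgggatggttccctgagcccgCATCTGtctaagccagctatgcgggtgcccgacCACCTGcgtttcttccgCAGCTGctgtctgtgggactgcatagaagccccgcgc
Camk2b site 1, chr11:6065041-6065240: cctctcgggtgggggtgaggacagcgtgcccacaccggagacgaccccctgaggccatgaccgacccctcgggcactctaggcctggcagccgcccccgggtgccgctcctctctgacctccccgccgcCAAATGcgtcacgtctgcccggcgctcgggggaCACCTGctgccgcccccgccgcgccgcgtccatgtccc
Camk2b site 2, chr11:6030796-6030995: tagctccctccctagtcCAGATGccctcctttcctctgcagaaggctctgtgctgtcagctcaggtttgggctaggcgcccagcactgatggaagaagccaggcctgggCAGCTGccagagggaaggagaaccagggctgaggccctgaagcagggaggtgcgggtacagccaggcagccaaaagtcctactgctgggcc
Camk2d site 3, chr3:126810485-126810638: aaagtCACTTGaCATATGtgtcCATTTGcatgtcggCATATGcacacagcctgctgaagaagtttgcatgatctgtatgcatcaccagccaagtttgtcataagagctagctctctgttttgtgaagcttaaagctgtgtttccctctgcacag
Camk2g, chr14:20734041-20734214: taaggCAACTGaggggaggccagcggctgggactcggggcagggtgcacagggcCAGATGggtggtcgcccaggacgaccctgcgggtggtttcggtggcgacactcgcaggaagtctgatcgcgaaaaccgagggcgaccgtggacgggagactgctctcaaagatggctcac
Camk1g, chr1:193343904-193344103: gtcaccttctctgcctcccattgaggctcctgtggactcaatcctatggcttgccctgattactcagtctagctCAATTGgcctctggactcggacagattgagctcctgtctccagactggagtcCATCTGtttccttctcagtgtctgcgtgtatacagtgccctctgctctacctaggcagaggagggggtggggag

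Peaks lay in the spans of 7 of the 10 kinase genes, and 4 of them, Camk2a, Camk2d, Camk4 and Camkk1, had a site that all 3 antibodies bound. Among all protein-coding genes, 35.2% had a peak of any antibody in their span and 7.49% had a site of all antibodies. The scores of several of these peaks were low, and with only peaks of a MACS score of at least 100, where the peak calling used 50, the number of kinase genes with a site of all antibodies fell from 4 to 1, Camk2d, against 3.49% of all genes, and that with a peak of antibody 3 also fell from 4 to 1, against 4.12%. By antibody, 4 of the 10 genes had a peak of antibody 1, against 15.4% of all genes, 7 had a peak of antibody 2, against 33.1%, and 4 had a peak of antibody 3, against 11.1%. The authors' deposited table of shared sites, which lists 2071 sites, had an entry in the spans of the same 4 genes, against 7.46% of all genes. Camk1, Camk1d and Camkk2 had no peak of any antibody. The kinase genes are longer than most genes, with a median span of 80.9 kb (range 29.9 to 441 kb) against 37.4 kb. Among the 13905 protein-coding genes with spans in that same range, 40.7% had a peak of any antibody and 8.55% a site of all antibodies. Both shares were higher for long genes, at 71.4% and 26.7% of the 1136 protein-coding genes with a span of at least 200 kb. Of the kinase genes Camk2d, Camk4 and Camk1d had such a span, and Camk2d and Camk4 had a site of all antibodies.

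**Figure D1:**
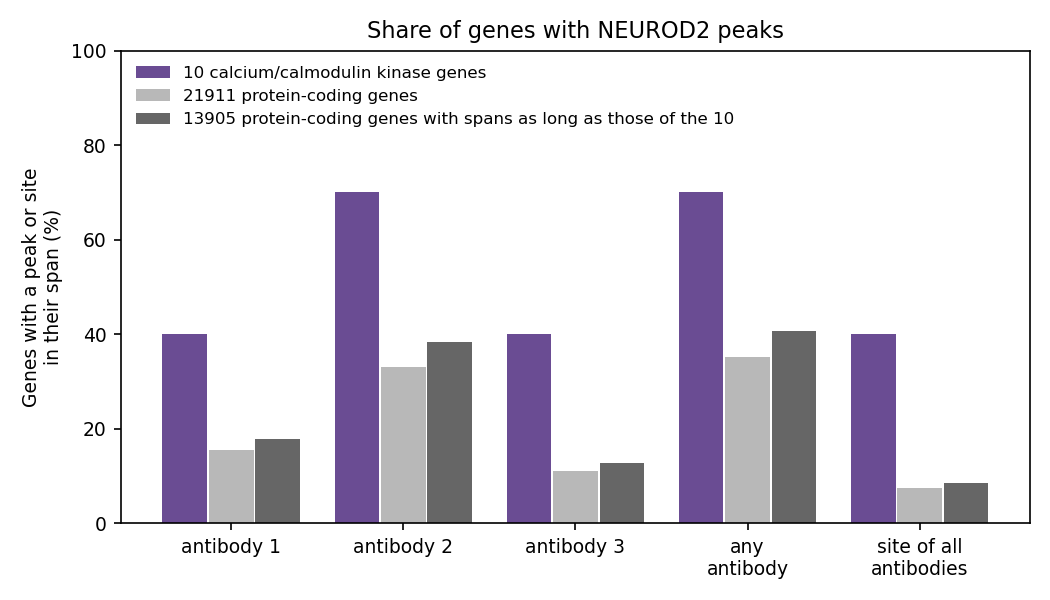
Share of genes, in percent, with a peak of each antibody, of any antibody, or with a site of all antibodies in the gene body plus 10 kb on each side. The bars of the 10 kinase genes, at 4 or 7 of 10 genes, stand above those of all 21911 protein-coding genes and of the 13905 genes with spans of 29.9 to 441 kb in each class.

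In all, the spans held 23 peaks, 6 of antibody 1, 12 of antibody 2 and 5 of antibody 3. Per 100 kb of span these were 0.414, 0.827 and 0.345 peaks, a mean of 0.528 ± 0.261 (SD between the antibodies, n = 3), over 1.45 Mb. Over the spans of all protein-coding genes the density was 0.275, 0.654 and 0.175 peaks per 100 kb, a mean of 0.368 ± 0.253 (SD, n = 3). The density at the kinase genes was higher with each of the 3 antibodies, by 0.139, 0.173 and 0.169 peaks per 100 kb, a mean difference of 0.160 ± 0.0188 (SD, n = 3 antibodies), which was not tested. This difference rested on 2 genes, Camk2d and Camk4, which held 13 of the 23 peaks. Without them, a choice made after seeing the data, the other 8 genes had 0.221, 0.663 and 0.221 peaks per 100 kb, a mean of 0.368 ± 0.255 (SD, n = 3), the same mean as over all genes and lower than theirs with antibody 1. Merging peaks that shared at least 1 bp gave the 12 sites, of which 5 had all 3 antibodies, 1 had antibodies 1 and 2, and 6 had antibody 2 alone. Of all 12637 merged sites, these 3 patterns made up 16.5%, 15.7% and 52.2%.

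Antibody 2 gave 11196 peaks in the whole genome, antibody 1 gave 5202 and antibody 3 gave 3164. The score of a peak is minus 10 times the log10 of its p from MACS, with a cutoff of 50 and with no scaling between antibodies, and the median scores of the 3 lists were 86.4 (antibody 1), 93.9 (antibody 2) and 76.7 (antibody 3). The peak lists hold no read counts, so the depth behind a score is unknown, and no peak can mean a score under the cutoff. Peaks of different antibodies never had the same limits.

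**Figure D2:**
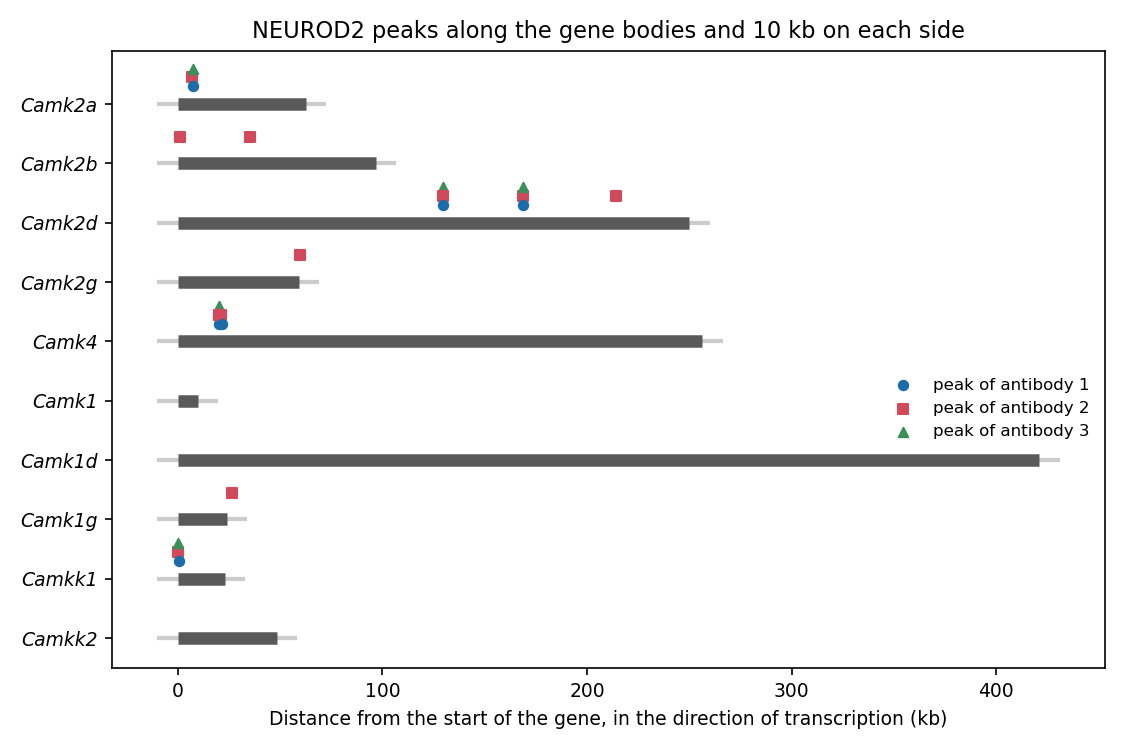
Peaks along the 10 kinase genes, with the distance from the start of each gene in kb on the x axis; dark bars are gene bodies, pale bars the 10 kb on each side, and symbols the midpoints of peaks by antibody. The 3 symbols stacked at Camk2a, Camk4, Camkk1 and at 2 places in Camk2d are the sites of all antibodies, and the rows of Camk1, Camk1d and Camkk2 hold none.

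Of the CaMKII genes, Camk2d had the most peaks and the highest scores. It encodes the delta subunit, which is expressed widely and also in heart, and it lies on chromosome 3 from 126596302 to 126846326. It had 3 sites and 7 peaks, against at most 6 peaks at any other gene of the group. Camk2d site 2 (chr3:126764715-126765180) scored 564.24 with antibody 1, 594.73 with antibody 2 and 295.72 with antibody 3. These were the highest scores at any kinase gene with each antibody, and they lay in the top 3.42%, 2.99% and 5.75% of the respective lists. The site ranked 218th of the 2071 sites of the deposited table by its deposited score of 1454.69, which was the sum of the 3 scores.

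Camk2d site 1 (chr3:126725651-126726012) was 39.1 kb upstream of site 2 and scored 158.37, 284.81 and 83.24 with antibodies 1, 2 and 3. It was weaker than site 2 with every antibody and ranked 1170th in the deposited table. Camk2d site 3 (chr3:126810505-126810663) had a peak of antibody 2 alone, with a score of 50.97, just above the cutoff. In transcript ENSMUST00000106402, sites 1, 2 and 3 were in introns 3, 4 and 15 of 19, and the midpoints were 130, 169 and 214 kb from the start of the gene. The closest TSS of a protein-coding transcript was 77109 bp from site 1 and 37993 bp from site 2. The midpoint of site 3 was 55 bp from an exon, which the site overlapped at its right end. Binding in Camk2d was thus measured inside the gene body and at none of its 11 coding TSSs, where no peak lay within 1000 bp.

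Camk2a encodes the alpha subunit, the most abundant one in the excitatory neurons of the forebrain, and lies on chromosome 18 from 60925618 to 60988152. Its only site (chr18:60932564-60933001) scored 102.01 with antibody 1, 142.93 with antibody 2 and 58.52 with antibody 3. With antibody 3 the score was in the lower part of the list, at 73.7% from the top, while antibodies 1 and 2 placed it at 42.0% and 30.2%. The site was in intron 1 of 17 of transcript ENSMUST00000102888, an intron of 15.4 kb, and its midpoint was 7164 bp from the start of the gene and 5833 bp from the closest TSS. No peak lay within 1000 bp of any of the 6 coding TSSs of Camk2a.

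Camk2b encodes the beta subunit, which binds actin and anchors the holoenzyme to the cytoskeleton. It had no site of all antibodies, unlike Camk2a and Camk2d, and 1 of its 2 sites was at a promoter. Camk2b site 1 (chr11:6064917-6065363) had a score of 69.8 with antibody 2 and no peak of the other antibodies. Its midpoint was 398 bp from a TSS, and a peak lay within 1000 bp of all 8 of the distinct coding TSSs of the gene. Camk2b site 2 (chr11:6030733-6031057) was 34.2 kb further into the gene, in the same intron 1 of transcript ENSMUST00000109813, and scored 51.26 with antibody 2 alone. Both scores were under the median of the list of antibody 2, and the closest peaks of antibody 1 and antibody 3 were 37.8 and 121 kb from the gene body.

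Camk2g encodes the gamma subunit, a form found in brain and in many other tissues. The peak in its span (chr14:20733948-20734332) had a score of 58.58 with antibody 2 alone and lay 543 bp past the end of the gene. This place was the promoter of the neighbouring gene Ndst2, an enzyme of heparan sulfate synthesis, with a TSS 422 bp from the midpoint. The closest Camk2g TSS was 5227 bp away. The gene body of Camk2g itself held no peak.

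Camk4, the gene of CaMKIV, had 3 sites within 1483 bp of each other. The gene lies on chromosome 18 from 32934931 to 33191228, and all 3 sites were in intron 1 of 10 of transcript ENSMUST00000042868, an intron of 138 kb. Camk4 site 1 (chr18:32954954-32955356) scored 183.61, 368.31 and 98.46 with antibodies 1, 2 and 3, and ranked 864th in the deposited table. Camk4 site 2 (chr18:32955550-32955974) began 193 bp after the end of site 1 and scored 121.8 with antibody 2 alone. Camk4 site 3 (chr18:32956155-32956436) began 180 bp after the end of site 2 and scored 69.22 with antibody 1 and 72.49 with antibody 2. The midpoints were 20.2, 20.8 and 21.4 kb from the start of the gene. Antibody 2 thus had a separate peak in each site, antibody 1 in sites 1 and 3, and antibody 3 in site 1. Whether these are separate places of binding or 1 stretch that the peak calling divided was not tested.

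Camkk1 encodes CaMKK alpha, which phosphorylates CaMKI and CaMKIV. Its site (chr11:73018936-73019667) was the only site of all antibodies at a promoter of a kinase gene, with the midpoint 258 bp from a TSS. The scores were 61.75, 131.8 and 51.24 with antibodies 1, 2 and 3, of which that of antibody 3 was just above the cutoff. The site ranked 1976th of 2071 in the deposited table. Of the 2 coding TSSs of Camkk1, 1 had a peak within 1000 bp.

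Camkk2, the gene of CaMKK beta, which also phosphorylates the energy sensor AMPK, had no peak in its span of 68.2 kb. The closest peaks were 23.0 kb from the gene body with antibody 2, at a score of 256.33, 23.4 kb with antibody 3, at 66.18, and 41.5 kb with antibody 1, at 70.73. The 2 genes of the activating kinases thus differed, with a site of all antibodies at the promoter of Camkk1 and no peak within 10 kb of Camkk2.

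The 3 CaMKI genes of the group had 1 peak in all. Camk1g encodes CaMKI gamma, a membrane-anchored form of neurons, and the peak in its span (chr1:193343880-193344127) lay 2219 bp past the end of the gene, in intergenic sequence. It scored 61.36 with antibody 2 alone, and the closest TSS was 15775 bp away. Camk1, the gene of the alpha form, had no peak in its span of 29.9 kb, the shortest of the group, and the closest was a peak of antibody 2 at 26.8 kb, with a score of 93.72.

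Camk1d encodes CaMKI delta and is the longest gene of the group, with a span of 441 kb and no peak in it. A site with all 3 antibodies lay 43.0 kb past the end of the gene, with scores of 237.2, 294.7 and 112.94. Of the 319 protein-coding genes with a span at least as long as that of Camk1d, a group chosen after its values were seen, 63 (19.7%) had no peak of any antibody.

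**Figure D3:**
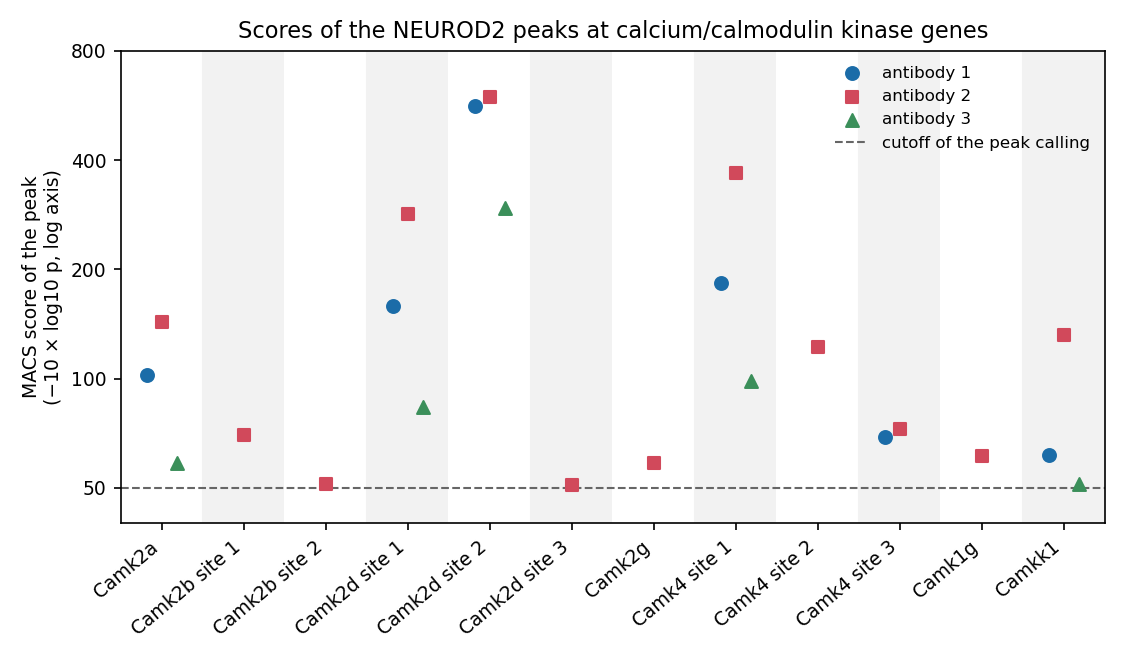
MACS scores, on a log axis, of the peaks in the 12 sites, with 1 symbol per antibody; the dashed line is the cutoff of the peak calling, at 50. Camk2d site 2 is highest with each antibody, and 4 of the 6 sites bound with antibody 2 alone lie between 50.97 and 61.36.

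The 3 antibodies put the 5 shared sites in the same order. From highest to lowest score this was Camk2d site 2, Camk4 site 1, Camk2d site 1, Camk2a and Camkk1. The scores of these sites ran from 61.75 to 564.24 with antibody 1, from 131.8 to 594.73 with antibody 2 and from 51.24 to 295.72 with antibody 3. As a score is a logarithm of p at an unknown depth, it gives an order of the sites and not a fold of binding. Antibody 2 gave the largest of the 3 scores at each shared site, with no scaling between antibodies. Over all 2088 merged sites of all antibodies it also held the largest median share of the sum of scores. The shares were 31.0%, 49.4% and 18.9% for antibodies 1, 2 and 3. The midpoints of the 3 peaks of a site were within 33.5 bp of each other at Camk2d site 2, 34.0 bp at Camk2d site 1, 63.5 bp at Camk4 site 1, 67.0 bp at Camkk1 and 74.5 bp at Camk2a, against a median of 65.25 bp over all 2088 merged sites of all antibodies. The scores rest on 1 library per antibody, so the difference between 2 sites has no replicate of the same antibody.

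Most of the sites in these spans were in introns. Of the 12 sites 8 were intronic, 3 were within 1000 bp of a TSS and 1 was intergenic. Camk2d and Camk4 held 3 of the intronic sites each, those of Camk4 within 1483 bp of each other. Among all merged sites on the assembled chromosomes, 30.2% were intronic, 38.6% were at promoters, 27.0% were intergenic and 4.15% were exonic. The 2 sets are unlike, since the sites of the kinase genes were sought only in gene bodies plus 10 kb. That search leaves little room for intergenic sites, and the share of introns in the searched sequence was not measured. Of the 5 shared sites, those of Camk2a, Camk2d and Camk4 were intronic and that of Camkk1 was at a promoter. Of the introns with a site, that of Camk4 was the longest at 138 kb.

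Every site held at least 2 E-boxes in its central 200 bp. The counts were 5 at Camk2d site 2 and at Camk2d site 3, 4 at Camk4 site 2, 3 at Camk2d site 1 and at Camkk1, and 2 at each of the other 7 sites. The mean was 2.83 ± 1.19 (SD over 12 sites), against 0.958 per 200 bp in windows 2000 bp from the edges of the sites on each side. The count of the centre was above the mean of the flanks at 12 of 12 sites. Of all 12631 merged sites on the assembled chromosomes, 83.2% had an E-box in the centre, 56.9% had 2 or more, and 60.7% had more in the centre than in the flanks. Over those sites the means were 1.99 in the centre and 1.13 in the flanks. The median count in the centre was 2.00 both at the kinase genes and over all merged sites.

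**Figure D4:**
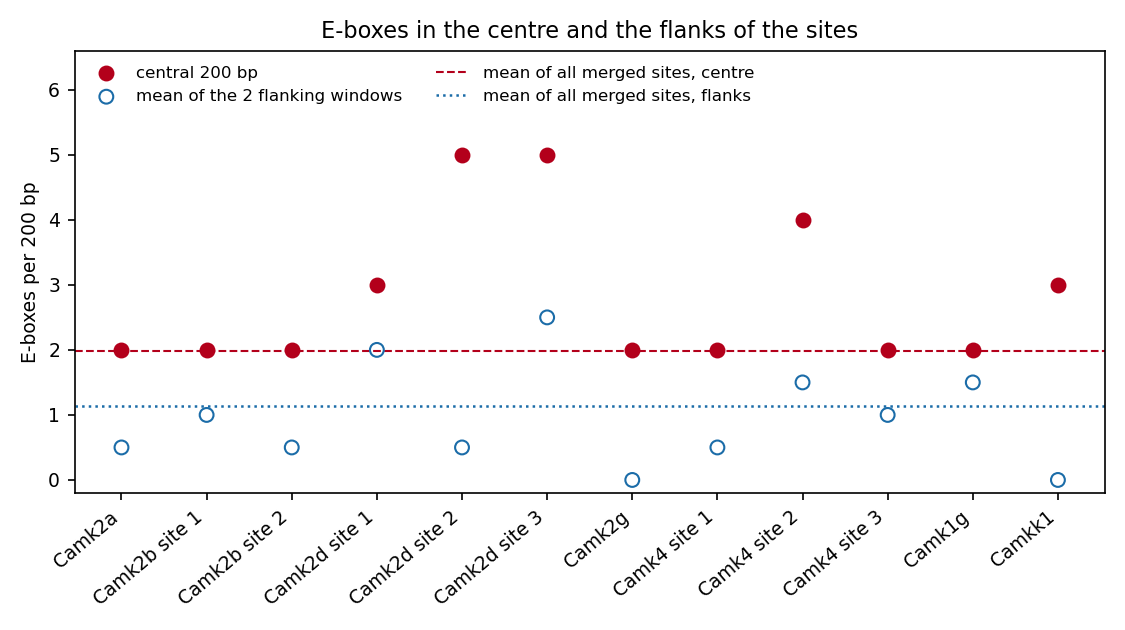
E-boxes per 200 bp in the centre of each of the 12 sites (filled) and as the mean of the 2 flanking windows (open), with lines at the means of all merged sites, 1.99 and 1.13. The filled symbols lie at or above 2 and above the open symbol of the same site at each of the 12 sites.

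The 5 sites of all antibodies had a mean of 3.00 ± 1.22 E-boxes in the centre (SD, n = 5 sites) and 0.700 in the flanks. The 7 sites of fewer antibodies had 2.71 ± 1.25 in the centre (SD, n = 7 sites) and 1.14 in the flanks, and the difference between the groups was not tested. Of all 2088 sites of all antibodies, 89.4% had an E-box in the centre, 68.2% had 2 or more, and 69.4% had more in the centre than in the flanks. Among the shared sites, Camk2d site 2, with the highest scores, had 5 in the centre, and Camk4 site 1, second in score, had 2. Camk2d site 3, with the lowest score of antibody 2, is only 159 bp long, so its window of 200 bp reached beyond the peak. In the site itself lay 3 E-boxes, against 8 in the 466 bp of Camk2d site 2. Per kb of site these were 18.9 at Camk2d site 3 and 17.2 at Camk2d site 2. E-box counts also differed with where a site lay. Over all merged sites the mean count in the centre was 2.52 in introns and 1.23 at promoters, and at the kinase genes it was 3.12 at the 8 intronic sites and 2.33 at the 3 promoter sites. The part of this difference in location in the mean of the kinase genes was not tested.

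The forms CAGCTG and CAGATG, read on either strand, were found in the centre of 10 of the 12 sites, including all 5 shared ones. They were present in 64.3% of all merged sites and in 76.8% of all sites of all antibodies. In Camk2d site 2, as shown in the first sequence, a CAGATG and a CAGCTG 15 bases apart lay next to the midpoint, at −9 and 12 bp from it, and 8 E-boxes lay in the 466 bp of the whole site. In the centre of Camk2d site 1 a CAGTTG and a CAGCTG were 5 bases apart, and a further CAGCTG followed after 83 bases. The centre of Camkk1 had a CATCTG, which is the second of these forms on the other strand, then a CACCTG after 27 bases and a CAGCTG after a further 11. The 2 sites without these forms in the central 200 bp were Camk2b site 1, with CAAATG and CACCTG there and a CAGATG further out in the site, and Camk2d site 3, where 4 of 5 E-boxes lay together in the intron, 2 of them in the peak and 2 to its left. At Camk2a both E-boxes of the central window were near its right end, 89 and 97 bp from the midpoint and 2 bases apart.

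**Figure D5:**
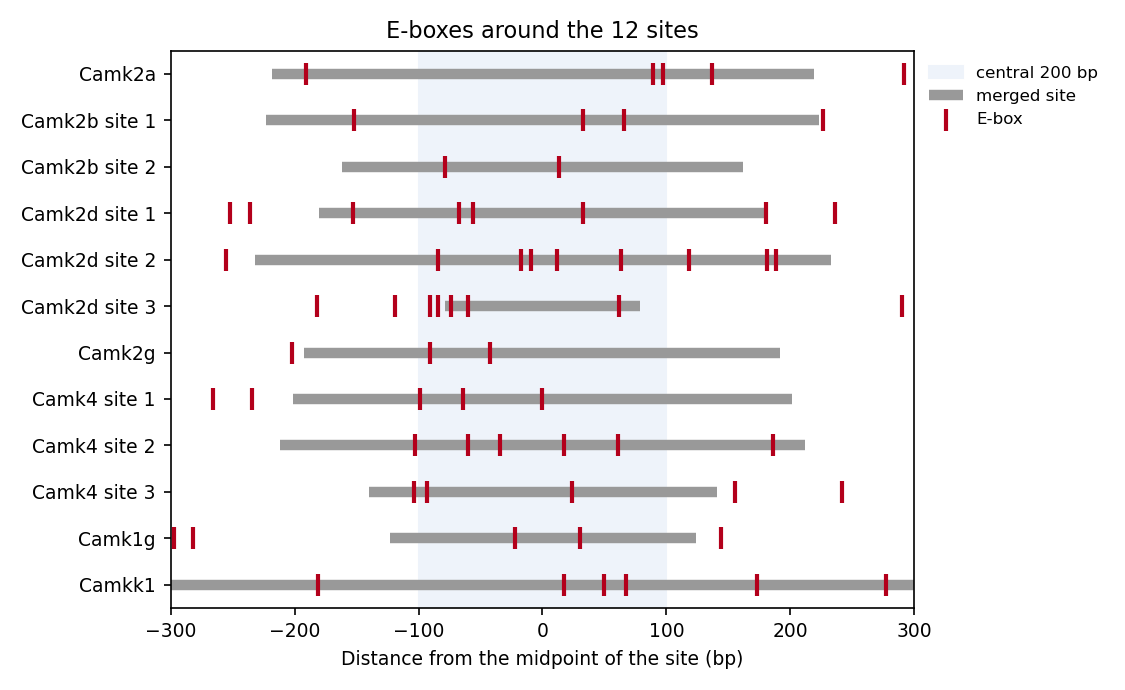
Positions of the E-boxes (vertical marks, at the fourth base) within 300 bp of the midpoint of each of the 12 sites, with the merged site as a grey bar and the central 200 bp shaded. Each site has at least 2 marks in the shaded window; the mark of Camk4 site 1 at its left edge is cut by the edge and was not counted, and the site of Camkk1 is longer than the axis.

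GC content was above that of the flanks in the centre of all 12 sites. It ranged from 45.0% at Camk2d site 3 to 75.0% at Camk2b site 1. This was also so at 89.3% of all merged sites and at 91.6% of all sites of all antibodies. The part of GC content in the E-box counts was not tested.

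The promoters of the kinase genes were also searched directly. RefSeq promoter windows, from 250 bases before to 50 after a gene start, were at hand for 7 of the 10 genes, as 8 windows, and Camk2a, Camk2g and Camk4 had none. E-boxes were found in 4 of the 8 windows, against 72.3% of all 32851 windows, and CAGCTG or CAGATG in 3 of the 8, against 30.6%. The window of Camkk1 overlapped 1 peak, that of antibody 2, and held no E-box, and the E-boxes of that site lay further into the gene. The window of Camk1, a gene without a peak, held 4.

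Genes around the kinases were examined as lists. Of the 2 calmodulin genes examined both had a peak of some antibody and 1, Calm2, had sites of all antibodies. Of 6 related kinases 4 had a peak and 1, Dclk1, a site of all antibodies. Of the 4 inhibitors and phosphatases of the kinases all had a peak and 1, Camk2n2, a site of all antibodies. Of 3 calmodulin-binding proteins 1, Gap43, had a peak, and it included all antibodies. Of the 4 genes of calcineurin, a phosphatase that calmodulin activates, 1 had a peak, Ppp3ca. Of 7 nuclear targets of the kinases 4 had a peak, Mef2a, Mef2c, Hdac4 and Hdac5. None of these 5 genes, which are named after their values were seen, had a site of all antibodies. These counts stand beside 35.2% of all genes with a peak and 7.49% with a site of all antibodies.

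At these genes the highest sums of scores were 1047.93 in an intron of Gap43, a growth cone protein that binds calmodulin, and 968.98 in an intron of Dclk1, a microtubule-associated kinase of migrating neurons. Both were below the 1454.69 of Camk2d site 2. Calm2 had sums of 868.81 and 693.15 at its promoter, where the highest peaks were those of antibody 2, at 565.11 and 407.41. Camk2n2, an inhibitor protein of CaMKII, had 385.45 at its promoter.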

How the data were processed

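Untreated P0 cortex was measured with 3 NEUROD2 antibodies, 1 library each. The authors aligned single-end reads to mm10 (Bowtie), and MACS peaks were called by them per antibody, with the GFP library as control. The deposited peak lists and table hold a score per peak or site, and no read counts, so depth is unknown and no counting interval can be given. In the deposited table, the score of each kinase site equals the sum of the scores of its peaks. The input and GFP libraries were not analysed here.

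Peaks sharing at least 1 bp were merged. Sites were placed by their midpoints on GENCODE M21 (promoter: within 1000 bp of a TSS; otherwise exon, intron or intergenic). CANNTG, which reads the same class on both strands, was counted in the central 200 bp and in 200 bp windows 2000 bp from the site. No test was run, since each antibody has 1 library; replicate spread is the SD between antibodies. All 10 genes are named, and genes of the other lists where a site of all antibodies was found, with any chosen after their values were seen said to be so. The result for 1 gene of these lists is not reported here. The genes and lists were chosen with earlier results of these data known. Python 3.11.15, pandas 2.3.3, pysam 0.24.0 and matplotlib 3.10.9 were used, and the procedures were tested on simulated data. Alternatives changed the span, score threshold, overlap, windows, TSSs and the antibodies used.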

Additional observations from a re-analysis of the deposited data

How the results depend on the processing

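Of 51 values under other settings, 39 stayed within the limits (within 1.5 times for counts, 1 SD between antibodies for means). With the spans widened to 50 kb on each side, 9 genes had a peak of antibody 1 and the number of sites rose to 24, and with only peaks scoring at least 100, 4 genes had a peak of antibody 2, 1 of antibody 3 and 1 a site of all antibodies, with 6 sites and 0.253 peaks per 100 kb. Leaving out 1 antibody at a time, with a shared site then needing the other 2, gave 4 genes with a shared site each time and 6 to 12 sites, the 6 without antibody 2. A site of all antibodies stays shared by any 2 of them, so this number of genes could not fall. Every site had a peak of antibody 2, so leaving out antibody 1 or 3 could not lower the number of sites and left nearly the same windows for the E-boxes. E-boxes per 200 bp of the centre were 2.33 with the central 100 bp, 2.17 with the central 400 bp and 3.17 with scores of at least 100, and those of the flanks 1.25 at 5000 bp from the site; leaving out an antibody gave 2.83 to 2.83 in the centre and 0.917 to 1.00 in the flanks. Leaving out Camk2d and Camk4, chosen after seeing the data, gave 0.368 peaks per 100 kb, the same mean as over all genes. This value counted as within the limit, because the SD between antibodies of 0.261 was wider than the mean difference from all genes of 0.160. The limit thus cannot show that this difference was stable. The count in the centre was above that of the flanks under each setting of score, antibodies and windows. E-boxes were not counted again with other spans or without Camk2d and Camk4. The moves with span and score follow from more sequence and fewer peaks; the causes of the E-box moves were not tested. Unknown depth and 1 library per antibody limit what a missing peak can show.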

Other observations

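The sites in the spans of the other genes of the pathway were also placed and searched for E-boxes. The 35 sites were at promoters in 22 cases and in introns in 7, whereas the 12 sites of the kinase genes were at promoters in 3 cases and in introns in 8. The other genes ran from 2.07 kb at Camk2n2, which held 6 of the 35 sites, to 297 kb at Dclk1. The kinase genes ran from 9.86 kb at Camk1 to 421 kb at Camk1d. The part of gene length in these contrasts was not tested. Of the 22 promoter sites 6 were closest to a TSS of a neighbouring gene and not of the listed one, as was 1 of the 3 at the kinase genes. In the central 200 bp, 8 of the 35 sites had no E-box and 18 had 2 or more, a mean of 1.71, against 0 without and 12 with 2 or more at the kinase genes. Of the 8 sites without an E-box 7 were at promoters, 2 of them those of neighbouring genes. Over all merged sites, 31.2% of those at promoters and 7.13% of those in introns had none. These are descriptions without a test, over lists that were chosen with results of these data known.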
